A study of Mus musculus with 2 samples.

Results

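Spp1, Srgn, Lyz1, Lyz2 and Mif encode proteins that macrophages release in quantity, and their transcripts were examined in RNA recovered with an antibody against nucleolin and in a control precipitation. The 5 genes were chosen by their measured FPKM in these same 2 libraries, and they are 5 of 23924 gene symbols and 9 of 33473 named transcript rows in the deposited table. All their levels and differences are therefore descriptions with no test. The libraries come from RAW 264.7 cells, a mouse macrophage line, depleted of the nuclear exosome subunit mRrp6 and stimulated with LPS (lipopolysaccharide) at 80 ng/ml for 12 h. RNA was recovered from nuclear extracts, with the cytosol removed, using rabbit IgG in 1 library and the nucleolin antibody in the other. Depletion and LPS are shared by both libraries, so neither can be compared with its absence. The depleted gene, Exosc10 (which encodes mRrp6), was at 0 FPKM in the control and 6.42 FPKM in the pulldown, and both libraries are from depleted cells. The first is called the control and the second the pulldown below. FPKM counts fragments relative to the length of the transcript and to all mapped fragments of the library. It divides by length so that levels of different genes can be set side by side. Where reads are few, as here, a short transcript can reach a high FPKM on very few of them.

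Each of these genes has its own place in macrophage biology. Spp1 encodes osteopontin, a secreted phosphoprotein and cytokine that binds integrins and CD44. Srgn encodes serglycin, the core protein of a proteoglycan that carries chondroitin sulfate chains and packs secretory granules and vesicles. Lyz2 encodes lysozyme M of myeloid cells and Lyz1 encodes lysozyme P, best known from Paneth cells of the intestine; both cleave bacterial cell walls. Mif encodes macrophage migration inhibitory factor, a cytokine that is stored in the cytoplasm, released without a signal peptide and bound by CD74. Nucleolin is an abundant nucleolar RNA-binding protein that also binds messenger RNAs.

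The 2 lysozyme genes are alike around their starts. Lyz2 and Lyz1 lie next to each other on chromosome 10, 5523 bases apart, and both run on the minus strand. Comparing RefSeq sequence (GRCm38.p6) without gaps, the 2 genes matched at 92.0% of the 100 bases before the start and at 49 of the first 50 transcribed bases, but at 60.8% of the 250 bases before the start. Below are the 100 bases before each start, where capitals mark the 8 positions at which the genes differ; Lyz2 is chr10:117282273-117282372 and Lyz1 is chr10:117292869-117292968.
Lyz2: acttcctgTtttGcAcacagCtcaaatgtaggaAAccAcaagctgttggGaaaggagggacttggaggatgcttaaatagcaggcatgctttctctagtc
Lyz1: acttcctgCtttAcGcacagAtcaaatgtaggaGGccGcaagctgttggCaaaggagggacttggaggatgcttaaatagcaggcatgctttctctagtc
The 20 bases from the first ATG of the transcribed part follow, chr10:117282223-117282242 for Lyz2 and chr10:117292819-117292838 for Lyz1, with the single difference in capitals.
Lyz2: atgaagActctcctgactct
Lyz1: atgaagGctctcctgactct
A short read from the first transcribed bases can be shared by both genes; the rest of the transcripts was not compared. Whether the deposited values split shared reads is not given in the sources used here.

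Before the values, the libraries were checked against the label of a macrophage line, and the control went against it in part. Macrophage markers were listed in both: of 14 macrophage markers 7 were listed in the control and 11 in the pulldown, with Cd14 at 319 and 207 FPKM, and their summed level was 758 and 573 FPKM. Csf1r, Itgam, Fcgr1 and Coro1a were at 0 in the control, and Adgre1, Mertk and Ptprc did not reach 1 FPKM in either library. Going the other way, Cd68 was at 138 FPKM in the control and 16.2 FPKM in the pulldown. Tyrobp was at 116 and 49.4 FPKM and Spi1 at 37.4 and 14.9 FPKM. Of the 11 that reached 1 FPKM in a library, 5 were at least 2-fold higher in the pulldown, 3 lower and 3 within 2-fold. Over all 3194 genes at that level, 37.8% were higher and 56.7% lower. Of 14 gastric and digestive secretory markers, 14 were listed in the control, from Muc6 at 10.6 FPKM to Pgc at 5078 FPKM, and 0 in the pulldown; they summed to 21471 and 0 FPKM. Of 6 epithelial markers 5 were listed in the control and 0 in the pulldown, summing to 448 and 0 FPKM. The labels name RAW 264.7 macrophages alone for both libraries. The part of these transcripts in the differences of Spp1, Srgn, Lyz2 and Mif was not tested. In bulk libraries like these, the number of cells of a type, the RNA per cell and the recovery by each antibody cannot be told apart. Some other cells also make the members' products. Of 12 Paneth cell, 8 mast cell, 8 neutrophil, 6 cytotoxic lymphocyte and 5 platelet markers, 0 reached 1 FPKM in either library, and of 10 bone markers 1 did, Col1a1 at 18.8 FPKM in the control.

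Transcripts of 4 of the 5 genes were listed in the pulldown, and each of those was lower or at 0 in the control. Spp1 was at 139 FPKM in the control and 512 FPKM in the pulldown. Srgn was at 57.4 FPKM in the control and 303 FPKM in the pulldown. Both osteopontin and serglycin transcripts were thus listed on both sides and were higher with the nucleolin antibody, 3.69 times and 5.28 times as deposited. Lyz2 was listed at 0 in the control and 199.6 FPKM in the pulldown. Mif was listed at 0 in the control and 103 FPKM in the pulldown. Lyz1 was at 0 FPKM in both, so the name of the group as abundant products does not hold for it. The order in the pulldown was Spp1, Srgn, Lyz2, Mif and Lyz1, and with 1 library per antibody no spread between samples tells neighbours in that order apart.

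**Figure D1:**
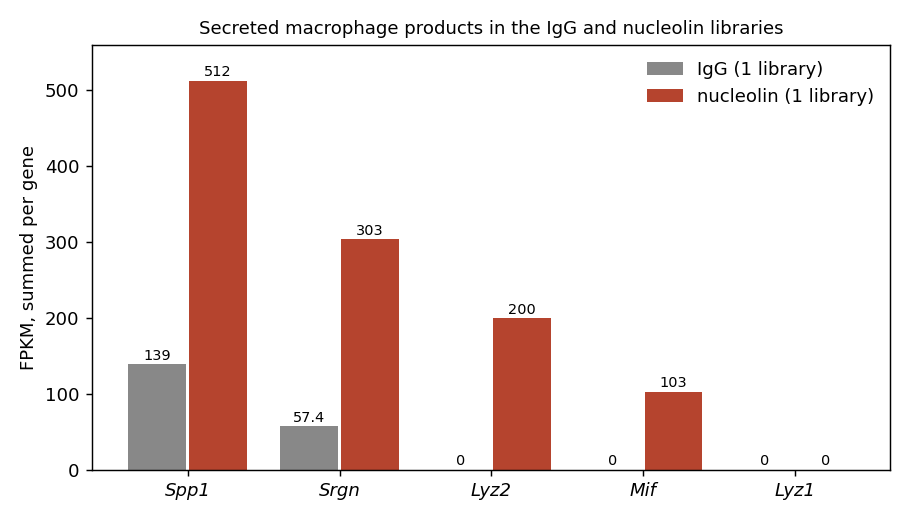
FPKM summed per gene (vertical axis, from 0) for the 5 genes, with 1 grey bar for the IgG control and 1 red bar for the nucleolin pulldown; there are no error bars because each antibody has 1 library. Spp1 goes from 139 to 512 FPKM and Srgn from 57.4 to 303 FPKM, while Lyz2 and Mif have a bar in the pulldown only and Lyz1 has none.

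These transcripts ranked high among the genes listed with the nucleolin antibody. Of 1752 genes above 0 FPKM there, Spp1 was the 6th highest, Srgn the 12th, Lyz2 the 22nd and Mif the 51st. Of 2023 genes above 0 in the control, Spp1 was the 114th and Srgn the 303rd. Rn45s, Lars2, Mir6236 and Mir142b hold a large part of the summed FPKM (190321 in the control and 361896 in the pulldown), and without them the table summed to 97649 FPKM in the control and 35976 FPKM in the pulldown. These remainders differ in make-up, as the control one still held 21471 FPKM of gastric and digestive secretory markers, listed at 0 in the pulldown. Shares of the 2 remainders are therefore not like for like. Of the remainder, Spp1 took 0.142% in the control and 1.42% in the pulldown. Srgn took 0.0588% and 0.843%. In the pulldown Lyz2 took 0.555% and Mif 0.285%. Together the 5 genes summed to 196 FPKM in the control and 1118 FPKM in the pulldown, or 0.201% and 3.11% of the remainder.

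On the log2(FPKM + 1) scale, the difference between the pulldown and the control was 1.88 for Spp1 and 2.38 for Srgn. The values of 7.65 for Lyz2 and 6.69 for Mif rest on a control value of 0 and depend on the pseudocount. All 4 genes that reached 1 FPKM in a library were at least 2-fold higher in the pulldown, as were 1206 of the 3194 genes compared (37.8%), while 1812 (56.7%) were at least 2-fold lower. Lyz2 and Mif belong to the 1186 genes (37.1%) that were higher and close to 0 in the control, that is below 0.1 FPKM. Spp1 and Srgn belong to a smaller set. Among the 538 genes listed in both libraries, 20 (3.72%) were 2-fold higher in the pulldown. Nothing is read from these counts, because the genes were chosen on the same values.

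Among those 538 genes, Srgn had the 3rd and Spp1 the 4th largest FPKM ratio. P4hb, a disulfide isomerase of the endoplasmic reticulum, stood first at 18.1 and 99.8 FPKM (5.52 times), and the chemokine gene Ccl9 second at 30.1 and 160 FPKM (5.31 times). Just below Spp1 came Cd74, at 34.8 and 123 FPKM (3.53 times). P4hb and Ccl9 were named after their values were seen. The median log2 difference over the 538 genes was -1.19.

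**Figure D2:**
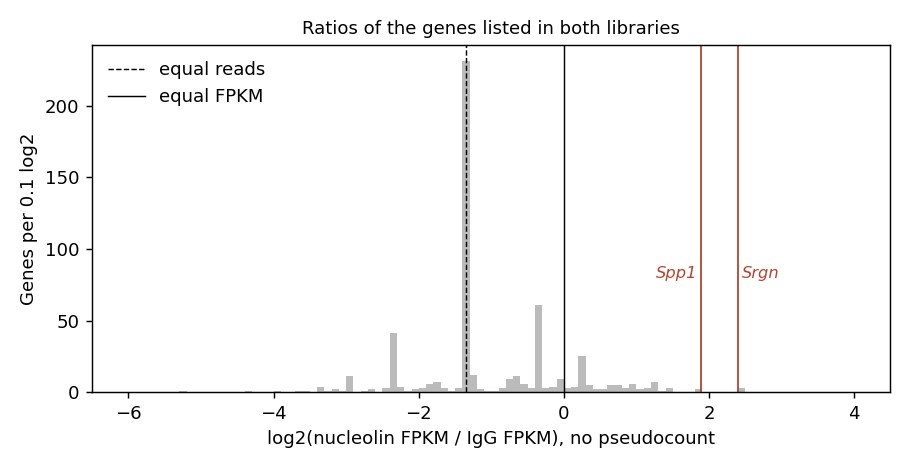
Histogram of log2(nucleolin FPKM / IgG FPKM) without a pseudocount (horizontal axis) for the 538 genes listed in both libraries, as genes per 0.1 log2 (vertical axis). The tallest column stands at the dashed line, the ratio of 0.393 that equal reads give; the red lines of Spp1 and Srgn, at ratios of 3.69 and 5.28, lie to the right of the solid line of equal FPKM.

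Very few reads stand behind these values, and the size of 1 read could be recovered. Of 246 low genes with 1 row and values in both libraries, 157 had the same pulldown-to-control ratio of 0.393, the ratio at equal reads. Relative to it, the Spp1 ratio corresponds to 9.38 times and the Srgn ratio to 13.4 times as many reads in the pulldown as in the control. Equal FPKM would itself correspond to 2.54 times as many reads in the pulldown, so these read ratios leave out the scaling for library size. For genes without introns the genomic span is the transcript, and FPKM times span (less a fixed offset) then has 1 value for all genes with 1 read. Such a value was found at an offset of 200 bases. It was 42.3 FPKM for a length of 1 kilobase beyond the offset in the control and 16.6 in the pulldown. Of 284 control genes of short span, 23 lay within 1% of it and 1 at a value 2 times smaller; of 230 pulldown genes these were 6 and 0. If the FPKM were scaled in the usual way, these values imply about 24000 mapped fragments in the control and 60000 in the pulldown, ribosomal RNA included.

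**Figure D3:**
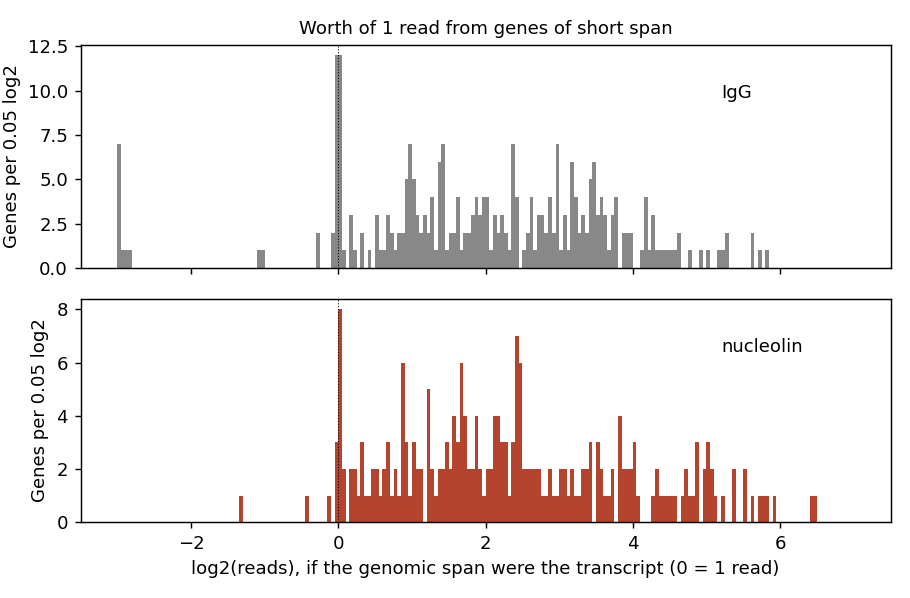
Genes per 0.05 log2 (vertical axis) against the log2 number of reads each would hold if its genomic span were its transcript (horizontal axis, 0 meaning 1 read), for genes with 1 transcript row and a span under 6000 bases, control above and pulldown below. Both panels have a column at 0 and few genes to its left, apart from a small group near -3 in the control panel; genes with introns spread to the right because their span exceeds the transcript.

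With the span from the RefSeq table as the longest possible transcript, these values bound the reads of each gene. Mif spans 925 bases, from 75859353 to 75860277 on chromosome 10, so that its 103 FPKM in the pulldown stood for at most 4 reads. A count of 0 allows up to 3 reads, and 3 control reads on Mif would be worth 175 FPKM at that length and more on a shorter transcript. The 0 of Mif in the control therefore allows a level equal to that of the pulldown. Even at 4 reads against 0, the exact 95% interval (Clopper-Pearson) of the Mif FPKM ratio starts at 0.260, below 1.

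Lyz2 spans 4732 bases, from 117277541 to 117282272 on chromosome 10, and held at most 54 reads in the pulldown. For a single read to give 199.6 FPKM, its transcript would have to be 283 bases long. The 0 of Lyz2 in the control allows 28.0 FPKM at the full span and more on a shorter transcript. At 54 reads against 0 the interval of the Lyz2 FPKM ratio starts at 5.56, and at 1 read against 0 it starts at 0.0101, below 1. Lyz1, from 117287795 to 117292868 on the same chromosome, could have held 26.0 FPKM in the control and 10.2 FPKM in the pulldown, or more on a shorter transcript, and still be listed at 0.

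For genes listed on both sides, the interval depends on how many reads make up the ratio. The smallest whole reads that give the Spp1 ratio are 2 in the control and 19 in the pulldown, and the exact 95% interval of its FPKM ratio is then 0.902 to 33.1. Spp1 spans 5943 bases, from 104435111 to 104441053 on chromosome 5, which allows at most 18 and 176 reads, and at these the interval is 2.36 to 6.64. The smallest reads for Srgn are 1 and 13, with an interval of 0.768 to 217. Expressed in reads, with 1 read worth the same in both libraries, the lower ends at the smallest pairs are 2.29 for Spp1 and 1.95 for Srgn. Both lie below 2.54, the ratio in reads that equal FPKM would give. The RefSeq span of Srgn, from 62493833 to 62527445 on chromosome 10, is 33613 bases and allows up to 45 and 608 reads, at which the interval is 3.92 to 7.36. This upper limit counts any introns as transcript. For 1 control read to give 57.4 FPKM, the Srgn transcript would have to be 937 bases long. At either limit Spp1 and Srgn had more reads in the pulldown, but at the smallest pairs the interval of the FPKM ratio as deposited includes 1. All these intervals cover counting error only, without the spread between precipitations. They also take no account of the choice of the genes on these same values, so they are no test of a difference.

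Spp1 was the member with several isoforms, and 1 of its 5 rows carried nearly all of its FPKM. NM_009263 was at 139 FPKM in the control and 512 FPKM in the pulldown, or 99.999% and 99.972% of the gene. NM_001204203 followed with 0 in the control and 0.133 FPKM in the pulldown, and the other 3 rows were at 0.00806 FPKM or less in both. Values that small are far under the worth of 1 read, as when reads shared by isoforms are divided between rows in fractions. Srgn, Lyz1, Lyz2 and Mif have 1 row each. RefSeq also lists 7 Mif pseudogenes on 7 chromosomes, of which 0 matched a gene identifier in the table, so they have no row of their own here. Their sequences were not compared with Mif.

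**Figure D4:**
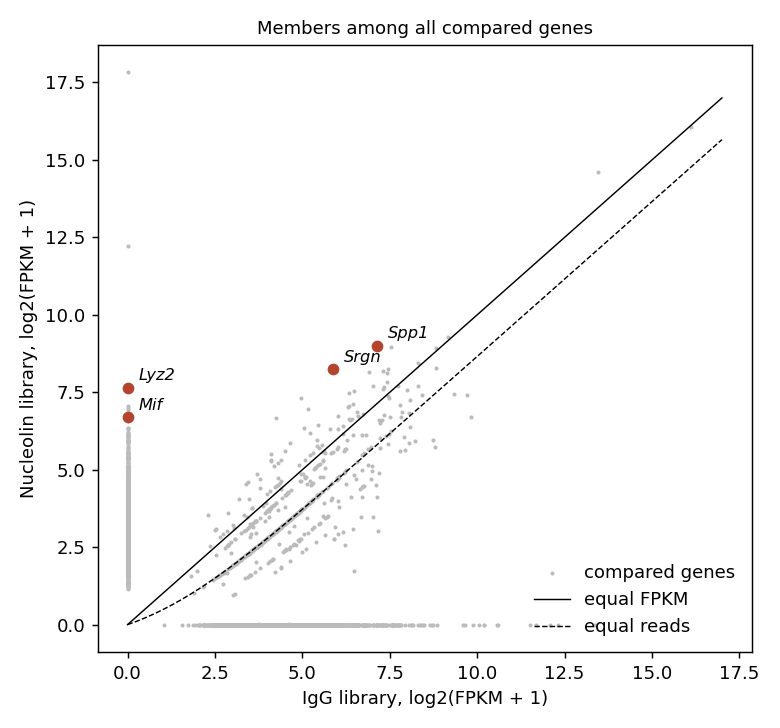
log2(FPKM + 1) in the pulldown (vertical axis) against the control (horizontal axis) for the 3194 compared genes in grey, with Spp1, Srgn, Lyz2 and Mif in red; the solid line marks equal FPKM and the dashed line equal reads. Lyz2 and Mif lie on the left edge, where the control is at 0, and Spp1 and Srgn lie above both lines.

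The genes nearest to each member were found by distance in log2(FPKM + 1) over the 2 libraries. Nearest to Spp1 was the chemokine gene Ccl4, at 185 FPKM in the control and 501 FPKM in the pulldown (distance 0.411), followed by the ribosomal protein gene Rps26 (0.806). Srgn had no neighbour as close. Its nearest were Gnb2l1, a ribosome-bound scaffold protein gene at 80.4 and 177 FPKM (0.908), Rpl18 (0.944) and the glycolytic gene Gapdh at 118 and 284 FPKM (1.03). Lyz2 lay beside Rpl23a, at 0 and 202 FPKM (0.0174), then Sdf2l1 and Isg15 (0.598 and 0.661). Mif lay beside Rps10 and Rps13, at 96.8 and 94.4 FPKM with 0 in the control (0.0819 and 0.119), and S100a11 (0.241).

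Genes next to the members on the chromosomes were mostly at 0, but so were most genes anywhere. Of 26 other genes in the table within 100000 bases of a member, 6 reached 1 FPKM in a library. Over all genes, 3194 of 23924 gene symbols did so, which is not a larger share. Near Spp1, Pkd2 was at 16.9 FPKM in the control and 0 in the pulldown. Near Srgn, Supv3l1 and Vps26a were at 19.3 and 14.9 FPKM in the control and 0 in the pulldown. Near Mif, Gstt3 was at 25.3 FPKM in the control and 0 in the other, and Cabin1 at 0 and 2.27 FPKM. Near the lysozyme genes, Cpsf6 was at 0 and 2.61 FPKM. Every one of these 6 was listed in 1 library only, as were most compared genes (538 of 3194 were listed in both). The levels of Spp1, Srgn and Lyz2 in the pulldown, on which they were chosen, stood far above those of these 6.

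Other transcripts of secreted macrophage proteins were split between the libraries. Of 43 such genes (complement factors, cathepsins, galectins, proteases and their inhibitors, growth factors), 22 reached 1 FPKM in a library. In the pulldown 6 of them were at least 2-fold higher, 9 lower and 7 within 2-fold, with a median log2 difference of -0.05. Over all 3194 genes compared the shares were 37.8% higher and 56.7% lower and the median was -1.27. The highest differences were those of Ctsz, a lysosomal cathepsin, and Cfp, the complement regulator properdin, at 70.9 and 50.9 FPKM with 0 in the control. The lowest were those of Lcn2 and Slpi, an iron-siderophore binder and a protease inhibitor, at 65.0 and 62.7 FPKM in the control and 0 in the pulldown. Of the 10 listed in both libraries, 1 was 2-fold higher (3.72% over all genes in both) and 2 were lower, with 2.37 as the largest ratio (Ctsd, an aspartic protease, at 24.1 and 57.3 FPKM), below the 3.69 of Spp1 and 5.28 of Srgn. The 43 genes summed to 733 FPKM in the control and 784 FPKM in the pulldown, while the 5 members summed to 196 and 1118 FPKM. The members were chosen on these values and the list was written with earlier results known, so nothing is read from this contrast. The chemokine genes Ccl9 and Ccl4 were not on the list.

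**Figure D5:**
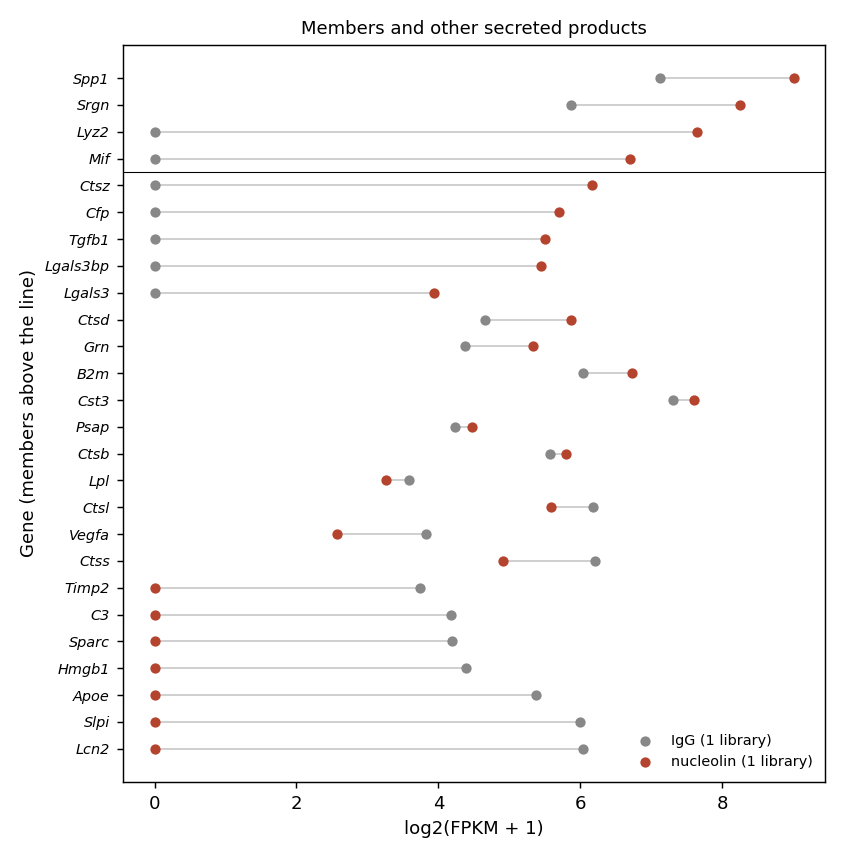
log2(FPKM + 1) (horizontal axis) in the IgG control (grey) and the nucleolin pulldown (red) for Spp1, Srgn, Lyz2 and Mif above the line and for the 22 measured genes of the other secreted macrophage products below it, sorted by difference. The red point lies to the right for all 4 members, which were chosen on these values. Below the line 6 genes are higher and 9 lower in the pulldown by 2-fold or more.

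Few transcripts for receptors and partners of these proteins were measured, that is, reached 1 FPKM in a library. The same held over all genes, where 3194 of 23924 gene symbols did so. The low counts are therefore not particular to receptors and partners. Of 6 genes for MIF receptors and the MIF paralog, Cd74 alone was measured; it encodes the invariant chain, which also serves as the MIF receptor at the cell surface, and it was higher in the pulldown (34.8 and 123 FPKM). Of 10 osteopontin receptor genes 2 were measured, the integrin chains Itga5 at 30.4 and 27.8 FPKM and Itgav at 6.17 and 0 FPKM. Of 20 genes for the synthesis of chondroitin sulfate, the sugar chain on serglycin, 3 were measured. Chpf and Papss1 were at 11.5 and 6.96 FPKM in the pulldown only, and Xylt1, which starts the chain on the core protein, was at 14.7 FPKM in the control only. Of 8 further lysozyme family genes 0 reached 1 FPKM.

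Of 34 genes of the general secretory pathway, 21 were measured, 10 of them 2-fold higher and 5 lower in the pulldown, with a median log2 difference of 0.22. Over all genes compared the shares were 37.8% higher and 56.7% lower and the median was -1.27. The 10 higher genes were all close to 0 in the control, and among the 8 listed in both the median was -0.32 with 0 higher and 2 lower, against -1.19 and 3.72% higher over all 538 such genes. The highest differences were those of the translocon genes Sec61b and Ssr4, at 51.6 and 36.3 FPKM with 0 in the control. The lowest were those of the transport vesicle genes Sar1b and Tmed2, at 40.2 and 23.8 FPKM in the control and 0 in the pulldown.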

How the data were processed

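Per the file headers, the authors deposited FPKM values in 1 table, a column for each library. FastQC 0.10.0, Trimmomatic 0.32 and build mm10 are named in the submitters' processing notes; not given in the sources used here are aligner, quantification tool, strand use and the handling of multi-mapped reads. The sample whose title names nucleoplasmic RNA is the nucleolin pulldown and the other the IgG control, from the design text and the column symbol NCL. Rows were summed per gene symbol; 56 rows without a symbol (0.0364% of IgG and 0.0794% of nucleolin FPKM) were left out. Gene positions came from a RefSeq table of GRCm38.p6, which held the gene identifier of 99.6% of rows.

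Genes at 1 FPKM or more in a library were compared by log2((nucleolin + 1) / (IgG + 1)), a scale that understates changes of low genes. With 1 library per antibody no test was made. The equal-read ratio was the most frequent ratio (within 0.05 log2) among genes with 1 row under 60 IgG and 30 nucleolin FPKM. The worth of 1 read was the value shared, within 1%, by the most genes over both libraries (31), after dividing nucleolin values by that ratio. Read pairs were the smallest whole numbers (at most 40 in all) within 0.05 log2. The read limits and offset were set after seeing the data. The steps were tested on simulated data. The members and all gene lists were chosen with earlier results of these data known. Named genes are the members, the 3 nearest genes to each, the 2 highest and 2 lowest of each list, neighbours at 1 FPKM or more, and others as stated; a gene that this rule takes is not reported here. Python 3.11.15, pandas 2.3.3, numpy 2.4.6, scipy 1.17.1 and matplotlib 3.10.9 were used.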

Additional observations from a re-analysis of the deposited data

How the results depend on the processing

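In 9 alternatives, the count of members at least 2-fold higher in the pulldown stayed at 4, except that 3 passed at 4-fold, where Spp1 did not. The summed log2 difference of the 5 members, 2.50 as reported, was 2.51 and 2.45 with pseudocounts of 0.1 and 10 FPKM, 3.77 when centred on the median of compared genes, 3.85 with 1 read set equal, and 4.87 when rescaled to the sum without the 4 most abundant RNAs named above. Spp1 ranged from 1.81 to 4.25, Srgn from 2.22 to 4.76, Lyz2 from 4.39 to 11.0 and Mif from 3.49 to 10.0. No direction was reversed, but that outcome was largely fixed in advance. With a control value of 0, as for Lyz2 and Mif, no pseudocount or rescaling can reverse the direction. Centring, setting 1 read equal and rescaling each raised every measured member. The ranges therefore show the size of the dependence and are no check of the direction. Over all genes, the 1206 that were 2-fold higher became 439 with a pseudocount of 10 FPKM and 448 (of 2034) at a minimum of 10 FPKM, and the 1812 lower stayed within 1.5 times throughout. The split of all genes moved from 37.8% higher and 56.7% lower to 40.2% and 46.5% after centring, 40.5% and 46.9% with 1 read set equal, and 47.2% and 46.2% after rescaling. No paired analysis was possible because each antibody has 1 library, and for the same reason no replicate could be left out.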
